A study of Mus musculus with 6 samples.

Results

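The Strelka lists of passed somatic single nucleotide calls of 3 mice held 6411 calls, and 1129 of them were T to C changes. A call belonged to this class when its reference and variant bases were T and C, or A and G, which is the same change read from the other DNA strand. There were 478 such calls of 2853 in animal 54 (16.8%), 269 of 1480 in animal 108 (18.2%) and 382 of 2078 in animal 136 (18.4%). The calls were chosen by their base change alone, so the size of the class is given as a description. What was measured is where the changed T lay relative to the gene, which bases stood beside it, which amino acids changed and which reads carried the variant.

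The exomes of bone marrow and of ear, the germline reference, had been captured and sequenced for these C57BL/6 mice, giving 3 marrow and 3 ear samples. Per the sample labels, all of them carried the P95H change of the splicing factor gene Srsf2 and the tamoxifen-inducible R26CreERT2 driver, and all had been treated with tamoxifen in vivo. The protocol text instead gives 1 of the 3 animals an hScl-CreERT driver with an R26eYFP reporter, without saying which, and puts sampling at 50 to 60 weeks after tamoxifen, when the mice were moribund, whereas the age label reads 50 to 60 weeks. Animals 54 and 108 were male and animal 136 was female, and no animal without the Srsf2 change was analysed here. Each Strelka list compares the marrow of 1 animal with its own ear, so each animal is 1 replicate and its calls are not replicates. Median depth at T to C sites in coding sequence was 92, 105.5 and 123.5 reads in the marrow lists of animals 54, 108 and 136, and 139, 103 and 89.5 reads in the ear lists.

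A T to C change can begin on the strand that matches the messenger RNA, called the coding strand here, or on its partner, the template strand, where it is read in the gene as A to G. Damage removed by repair that is coupled to transcription leaves unequal numbers of changes on these strands, which is why a split by gene strand is used in studies of mutation. The genetic code ties each exchange to a base and a codon position: leucine to proline arises when the middle T of a CTN codon becomes C, and glutamine to arginine when the middle A of CAA or CAG becomes G.

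No genome sequence was used here, so surrounding bases could be read only where a call fell into a RefSeq promoter window (GRCm38.p6), which was the case for 25 calls. The windows of 11 calls are shown because they cover the changes described below: leucine to proline, other protein changes, a start codon and 5′ untranslated sequence. Names are those of the called genes, and some windows belong to another gene, such as Pfdn4 for Cyp24a1 and Gm51661 for Trak1. Each is written 5′ to 3′ on the strand that holds the T, and the capital marks the changed T.
Ttc7b: aaggaagcccTgaacatctac
Trak1: cttaggcggcTatccctacgc
Dmrtc1b: attgcatcacTatccaaacca
Cyp24a1: ccatacttctTgtggtactct
Tbx15: ggggatggtgTcccagtgctg
Pifo: tagtggctcaTgaagaca
Sec14l2: ccgcagccgcTggagtaaagt
Ikbkg: tctctgccgcTgggcccccac
Hsf2: ccgccgccgcTgcgacctccg
B9d1: tcccggcccaTcagtgcaatg
Adap2: gtggcagggtTgagccccgct
Ttc7b (L117P, chr12:100495357-100495377, minus strand, animal 54), Trak1 (L499P, chr9:121454346-121454366, plus strand, animal 108) and Dmrtc1b (L10P, chrX:102711195-102711215, plus strand, animal 136) are leucine to proline changes, and in each the T follows a C. In Cyp24a1 (K91E, chr2:170496342-170496362, plus strand, animal 54) and Tbx15 (T356A, chr3:99351870-99351890, minus strand, animal 108) the T lies on the template strand. The Pifo call (chr3:106014597-106014614, minus strand, animal 54) changes the T of the start codon. Sec14l2 (chr11:4118743-4118763, plus strand, animal 54), Ikbkg (chrX:74429292-74429312, minus strand, animal 108) and Hsf2 (chr10:57486447-57486467, plus strand, animal 136) lie in 5′ untranslated sequence with the T between C and G. Of the 6 window calls in such sequence these were the 3 with that pattern. B9d1 (chr11:61505191-61505211, plus strand, animal 54) has A before the T, Adap2 (chr11:80154177-80154197, plus strand, animal 108) has T before it, and in Gpx6, which is not shown, the T is the last base of its window on that side and is followed by A.

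Against the strand of the reference genome, T was the reference base of 277 calls of animal 54 and A of 201. The split was 156 to 113 for animal 108 and 190 to 192 for animal 136. The T shares were 57.9%, 58.0% and 49.7%. Sites found in both marrow and ear of the same animal, called shared sites here, had T in 49.7%, 50.2% and 50.3% of T to C sites. The difference averaged 5.18 percentage points ± 4.98 (SD, n = 3 animals), with p = 0.5 by an exact sign-flip permutation over the pairs, which cannot go below 0.25 for 3 animals. Animals 54 and 108 lay above their shared sites and animal 136 did not, and without animal 136 the mean was 8.05 points. With Strelka calls of quality at least 30 the mean was 5.69 points ± 4.71, and all 3 animals lay above (exact p = 0.25). Against sites called only in ear the mean was 4.04 points, in the same direction in 2 of 3 animals. Other classes of the same lists were also split unequally by reference strand, in both directions. C was the reference base in 72.3%, 73.8% and 67.5% of Strelka C to A calls, and in 47.7%, 39.5% and 42.7% of Strelka C to T calls.

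Relative to the gene, with the annotation of highest impact at each call, no direction was common to the 3 animals. Of the 1081 calls inside annotated genes, animal 54 had 221 with the T on the coding strand and 237 with it on the template strand. The numbers were 132 and 125 for animal 108, and 172 and 194 for animal 136. The coding strand shares were 48.3%, 51.4% and 47.0%, against 50.5%, 50.6% and 50.2% at shared sites. The mean difference was -1.57 percentage points ± 2.07 (SD, n = 3), with p = 0.5 by the exact sign-flip test. It was -2.73 points without animal 108 and -0.740 without animal 136. With the first annotation listed in place of that of highest impact, all 3 animals lay below their shared sites, by a mean of -2.76 points (exact p = 0.25, n = 3). Within each animal, Fisher's exact test gave odds ratios of 0.915, 1.03 and 0.878 with adjusted p of 0.543, 0.850 and 0.543 over the 3 animals. Against sites called in ear but not in marrow, called ear-only sites here, the mean difference was -3.18 points, and animal 136 passed Fisher's exact test (odds ratio 0.746, adjusted p = 0.0376). VarScan2 calls of the same class had coding strand shares of 52.4%, 52.0% and 50.6%, and the mean difference of the Strelka shares from these was -2.80 points ± 1.90 (SD, n = 3, exact p = 0.25). Without sites annotated to genes on both strands it was -0.678 points, in the same direction in 2 of 3 animals (exact p = 0.75, n = 3), and with the first annotation it was -2.75 points, also in 2 of 3 (exact p = 0.5, n = 3). In coding sequence alone, where VarScan2 had 60 such calls in all, it turned to 3.35 points.

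Coding sequence and introns, taken over all distances from an exon, differed in direction. In coding sequence the T was on the coding strand in 107 of 248 calls (43.1%), 64 of 139 (46.0%) and 92 of 199 (46.2%) in animals 54, 108 and 136. In introns it was there in 91 of 154 (59.1%), 52 of 85 (61.2%) and 58 of 112 (51.8%). Every animal thus had a higher share in introns, by a mean of 12.2 percentage points ± 5.78 (SD, n = 3, exact p = 0.25, the smallest that 3 animals allow). At shared sites the same contrast was -1.37 points ± 0.657, and the difference between the contrasts was 13.6 points ± 6.07 (n = 3, exact p = 0.25). The intron sites of Strelka calls and shared sites were not matched for distance to an exon, which is described below. The lower share in coding sequence passed Fisher's exact test in animal 54 (odds ratio 0.696, adjusted p = 0.0250) and not in animals 108 and 136 (0.809 and 0.824, adjusted p = 0.272 for both). That test treats calls as independent.

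**Figure D1:**
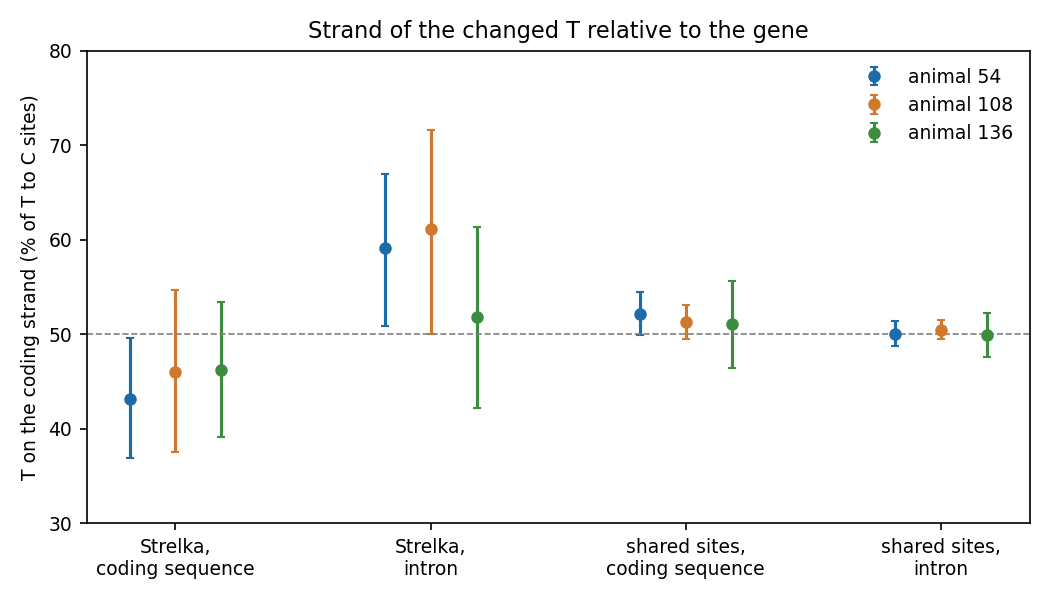
Share of T to C sites with the T on the coding strand (vertical axis, percent, from 30 to 80) for Strelka calls and shared sites in coding sequence and in introns, 1 point per animal with its exact 95% binomial interval and a dashed line at 50%. The Strelka points are 43.1%, 46.0% and 46.2% in coding sequence and 59.1%, 61.2% and 51.8% in introns, and the shared sites stay between 49.9% and 52.2%.

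Most intronic calls lay close to an exon. Of 416 calls with an intronic position, splice regions included, 174 lay within 30 bases of an exon and 365 within 100. On the acceptor side, from 3 to 30 bases before the exon, where introns carry a tract rich in T and C, the T was on the coding strand in 31 of 37 calls in animal 54, 14 of 17 in animal 108 and 14 of 18 in animal 136, summing to 81.9% (Clopper-Pearson 95% interval 71.1 to 90.0%). Summed in the same way, shared sites had 68.9% in this stretch (66.8 to 77.6% by animal) and ear-only sites had 93.6% (92.2 to 96.1%). The Strelka shares ranged from 77.8 to 83.8% by animal. The interval treats the summed calls as independent and does not cover the spread between animals. On the donor side, from 3 to 30 bases after the exon, the calls split 38 to 36, with the T on the coding strand in 60.0%, 45.5% and 45.5%. Shared sites had 47.9%, 45.6% and 35.1% there, and ear-only sites 13.8%, 38.6% and 20.9%. Beyond 30 bases the coding strand held the T in 51.0%, 60.3% and 47.5% of the calls, against 48.7%, 49.7% and 48.9% at shared sites. With introns limited to that distance, the mean excess over coding sequence was 7.80 points.

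The bases beside the T differed from those at shared sites. They were derived from the amino acids, since an exchange and its codon position often fix a neighbouring base, so each share covers the coding calls where the base is fixed. Strelka calls and shared sites differed in codon position, as given below, and these shares were not matched for it. C came before the T in 62 of 125 calls (49.6%) in animal 54, 30 of 63 (47.6%) in animal 108 and 45 of 95 (47.4%) in animal 136. Shared sites had 24.4%, 24.5% and 28.4%, and the mean difference was 22.5 points ± 3.18 (SD, n = 3, exact p = 0.25). A came before the T in 9.60%, 4.76% and 9.47% of the calls against 33.6%, 34.9% and 29.2% at shared sites, a mean difference of -24.6 points ± 5.19 (exact p = 0.25, n = 3). G followed the T in 44.5%, 50.7% and 45.9% against 37.6%, 36.4% and 33.2%, a mean difference of 11.3 points ± 3.87 (exact p = 0.25, n = 3). With calls of quality at least 30 it was 17.5 points ± 16.3 (SD, n = 3), a wide spread between animals.

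Ear-only sites also had a C before the T, in 58.3%, 52.2% and 56.9%, and against them the difference turned to -7.61 points. The G after the T was 11.5 points more frequent than at ear-only sites, and the A before it was 7.16 points less frequent (difference -7.16). C preceded the T in 45 of 75, 23 of 45 and 32 of 67 calls with the T on the coding strand, and in 17 of 50, 7 of 18 and 13 of 28 with the T on the template strand. All these shares were above those of shared sites on the same strand, which were 25.7%, 26.5% and 32.2% for the coding strand and 20.3%, 17.3% and 15.1% for the template strand.

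**Figure D2:**
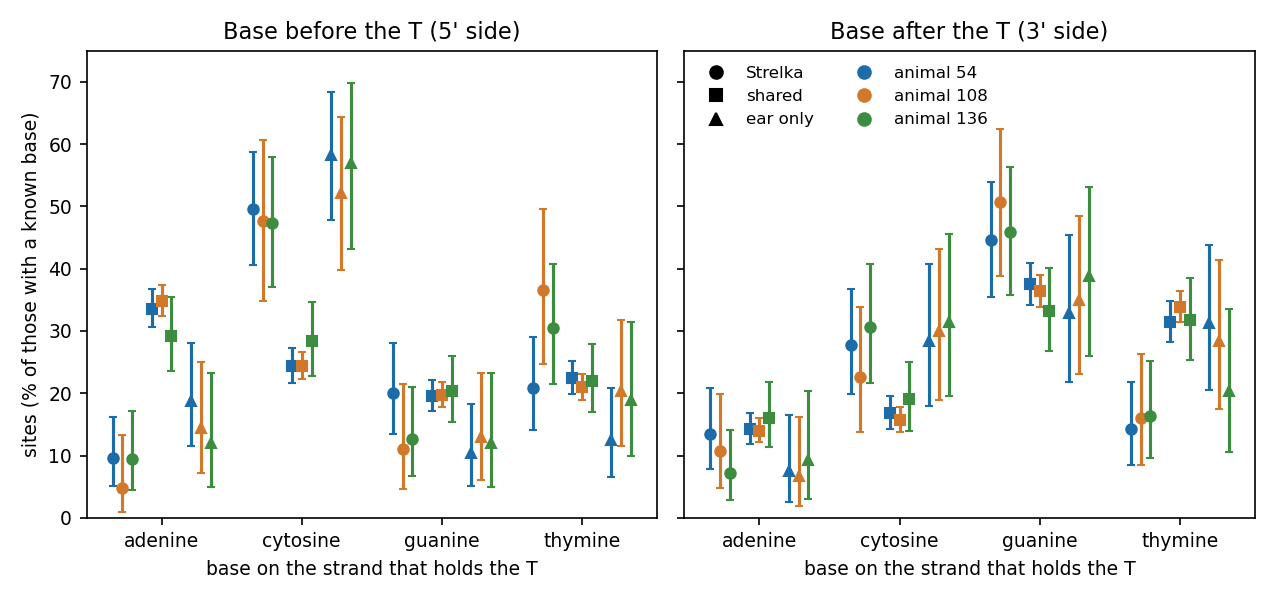
Share of coding T to C sites (vertical axis, percent of sites whose neighbouring base the amino acids fix) with each base before the T (left) and after it (right), for Strelka calls (circles), shared sites (squares) and ear-only sites (triangles), 1 point per animal with its exact 95% binomial interval. Cytosine before the T is at 49.6%, 47.6% and 47.4% in Strelka calls, from 24.4% to 28.4% at shared sites and at 58.3%, 52.2% and 56.9% at ear-only sites.

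In the promoter windows the bases could be read directly, in 8 calls in coding sequence and 17 outside it. The stated reference base matched the window in 27 of 27 comparisons. C came before the T in 16 of 24 calls (66.7%, Clopper-Pearson 95% interval 44.7 to 84.4%), and A in 3. Outside coding sequence it was 11 of 16 calls (68.8%), and in coding sequence 5 of 8, of which 3 were the leucine to proline calls, whose codon requires that C. G came after it in 15 of 25 (60.0%, 38.7 to 78.9%), or 11 of 17 outside coding sequence. Over every T of the 32815 windows, searched on both strands, C came before in 32.7% and G after in 29.6%. The motif CTG surrounded the T of 10 of 24 calls, and 10.7% of all window T lay in that motif. The calls and the windows were not matched for capture, coding content or base composition, and their shares were not compared by a test. A match describes these letters only.

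The calls changed proteins more often than shared sites did. Protein-altering calls, those that SnpEff gives a HIGH or MODERATE impact, were 186, 102 and 148 of the calls of animals 54, 108 and 136, or 38.9%, 37.9% and 38.7%. Among all Strelka calls of these animals the shares were 41.0%, 42.0% and 40.2%, so the class stood near the share of its own lists. Of protein-altering and synonymous calls together, 71.8%, 71.8% and 69.5% altered the protein, against 34.0%, 31.4% and 30.7% at shared T to C sites. The mean difference was 39.0 points ± 1.30 (SD, n = 3, exact p = 0.25), and Fisher's exact test within animals gave odds ratios of 4.96, 5.57 and 5.13. Against ear-only sites the mean difference was 13.96 points, and in animal 136 the odds ratio was 1.11 with adjusted p = 0.716 by Fisher's exact test.

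The middle base of the codon, where a change nearly always exchanges the amino acid, was changed in 97 of 247 calls (39.3%), 62 of 138 (44.9%) and 84 of 198 (42.4%). Shared sites had 16.1%, 15.3% and 15.4%, a mean difference of 26.6 points ± 3.27 (exact p = 0.25, n = 3), and against ear-only sites it was 12.3 points. The last base of the codon, where most T to C changes are silent, was changed in 30.4%, 29.0% and 33.3% of calls and in 63.5%, 66.1% and 68.0% of shared sites. Proline, alanine and threonine codons have C as their middle base. They held 36 of 73, 20 of 39 and 32 of 64 synonymous calls at the last base. Shared sites had 26.6%, 26.7% and 26.8% and ear-only sites 57.1%, 44.6% and 56.4%. With the T on the coding strand (29 proline, 17 alanine and 2 threonine calls) that C comes before it. With the T on the template strand (13, 12 and 15 calls) a G comes after it instead. The neighbouring bases above were derived in part from these same calls.

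Leucine to proline and glutamine to arginine led the 405 missense calls, with 52 each (12.8%). Both occurred 23 times in animal 54, 13 times in animal 108 and 16 times in animal 136. At shared sites they made up 5.61% and 5.79% of missense changes, and at ear-only sites 15.0% and 7.27%. Leucine to proline has its T on the coding strand, always after a C. Glutamine to arginine has its T on the template strand, always before a G. The neighbouring bases given above were derived from these same exchanges, so the exchange counts are not separate evidence of them. Glutamate to glycine followed with 35 calls (12, 10 and 13), or 8.64% against 3.10% at shared sites and 6.82% at ear-only sites. Serine to proline had 26 and lysine to glutamate 23. Isoleucine to valine, the exchange of 158 of 1711 shared missense sites (9.23%), was seen in 3 calls, all in animal 54, and isoleucine to threonine in 5. In isoleucine codons, which begin with A, the T of an isoleucine to threonine change follows an A.

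**Figure D3:**
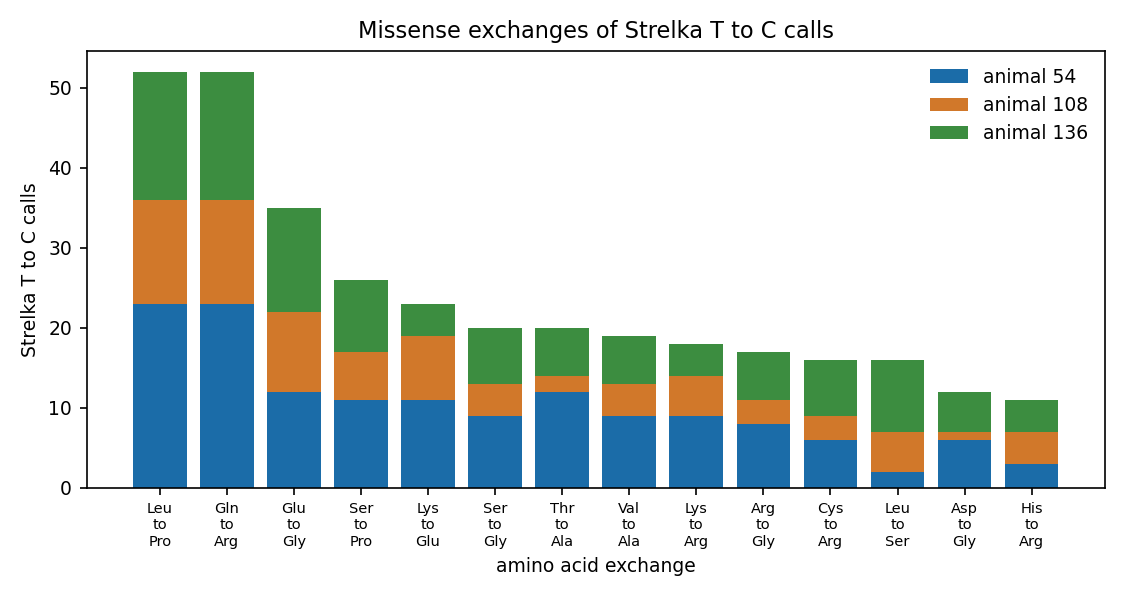
Number of Strelka T to C calls (vertical axis) for the 14 most frequent amino acid exchanges, stacked by animal. Leucine to proline and glutamine to arginine reach 52 calls each and glutamate to glycine 35, and each animal contributes to all 3.

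At splice sites, the calls fell more often on acceptors than on donors. Acceptors, whose invariant AG ends the intron, had 10, 2 and 11 calls, and donors, whose invariant GT begins it, had 1, 1 and 3. The A of an acceptor stands before a G, so the T on its partner strand follows a C. Shared sites had 9 acceptor and 8 donor changes and ear-only sites 10 and 6. The donor call in Nipsnap1, a mitochondrial protein (chr11:4888952, animal 136), had a quality of 73, the highest of any splice site call. Acceptor calls included Pdhx, a component of the pyruvate dehydrogenase complex (chr2:103028436, quality 30, animal 108), and Inpp5d, the SHIP inositol phosphatase of blood cells (quality 25, animal 54), the latter named after its values were seen. The start codon was lost in Pifo (quality 18) and the stop codon became tryptophan in Rab8b (quality 28, animal 108) and Trim23 (quality 20, animal 136). No call created a stop codon, which a T to C change on either strand cannot do.

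Strelka quality, the caller's score for a somatic change, had a median of 27, 23 and 22 in animals 54, 108 and 136, equal to that in the other Strelka calls of each animal. At least 30 was reached by 196 calls (41.0%), 69 (25.7%) and 102 (26.7%), against 39.9%, 27.3% and 25.2% of all Strelka calls. The protein-altering calls of highest quality in animal 54 were in Trpc4ap (E525G, 97), Cyp2c65 (Y80C, 93), Usp14, a deubiquitinase of the proteasome (M116T, 87), the giant muscle protein Ttn (K28099R, 85) and the glutathione transferase Mgst1 (S12P, 77). In animal 108 they were in the T-box factor Tbx15 (T356A, 83), the ESCRT subunit Vps37a (Q28R, 66), the mitotic kinase Aurkb (H229R, 65), the teneurin Tenm2 (F1917S, 64) and the cation channel Trpc4 (W643R, 59). In animal 136, after Nipsnap1, they were in the collagen Col12a1 (E795G, 56), the Brca1 partner Bard1 (C313R, 53), the matrix protein Fras1 (Q1149R, 52) and Rmnd5b (H83R, 51). None of these 15 calls was in the marrow lists of all variants, which held 38 of the 436 protein-altering T to C calls.

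The list of all variants in marrow held 74, 45 and 31 of the Strelka T to C calls (15.5%, 16.7% and 8.12%). It held 17.0%, 13.1% and 8.71% of all Strelka calls, and the ear lists held 0 of the T to C calls. Compared with the other Strelka classes alone, the mean difference was 0.610 points ± 3.35 (SD, n = 3, exact p = 1), and leaving out 1 animal gave -1.30 without animal 108, 1.85 without animal 54 and 1.28 without animal 136. VarScan2 shared 0, 2 and 0 of the calls, while it shared 6, 4 and 1 of all Strelka calls (0.210%, 0.270% and 0.0481%). The 2 were both in animal 108 and outside protein-coding sequence, in Gm12132 (intron, quality 18) and upstream of Gm2420 (quality 23).

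The 150 calls in the marrow lists carried few variant reads, split evenly between the read directions. Their median variant fractions were 12.5%, 11.8% and 12.5% at median depths of 33, 37 and 33 reads, while shared sites had medians of 47.6%, 47.8% and 47.6%. The lowest fractions were 9.68%, 9.76% and 9.76%, not far below these medians of the calls. For the Strelka T to C calls outside the marrow lists no fraction is known here. Forward and reverse variant reads were equal in number in 69 of 74, 41 of 45 and 30 of 31 calls. The reference reads of the same calls were equal in 2, 0 and 1. For example, Abca13 (S1518P, animal 54) had 4 forward and 4 reverse variant reads of 79 reads in all, and Scrn3 (S305P, animal 54) had 4 and 4 beside 22 forward and 11 reverse reference reads. Zmynd8 (N324D, animal 136) had 3 and 3 beside 15 and 32. Nos1 (F902S, animal 108) had 4 and 5 beside 24 and 50.

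Equal numbers were rarer at shared sites and at marrow-only and ear-only sites, and occurred at a like share in the other Strelka classes. Among sites with 4 to 10 variant reads, 95.8%, 91.1% and 96.8% of the Strelka T to C calls were equal against 1.82%, 1.60% and 0.574% of shared sites. Most of those shared sites had their variant reads on 1 strand only (76.1%, 72.2% and 84.3%), so the comparison was repeated where each strand had at least 5 reads. There, 96.6%, 90.2% and 96.6% of the calls were equal against 10.8%, 5.76% and 2.24% of shared sites, a mean difference of 88.2 points (exact sign-flip p = 0.25, n = 3). T to C sites in marrow alone and outside the Strelka lists had 4.96%, 6.56% and 14.4% under the same limit, and ear-only sites had 11.3%, 27.5% and 37.0%. In coding sequence, without that limit, ear-only sites reached 18.2%, 55.1% and 74.5%. The other Strelka classes had 94.6%, 94.0% and 93.9% with at least 5 reads on each strand. How the lists came to hold such calls was not tested.

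**Figure D4:**
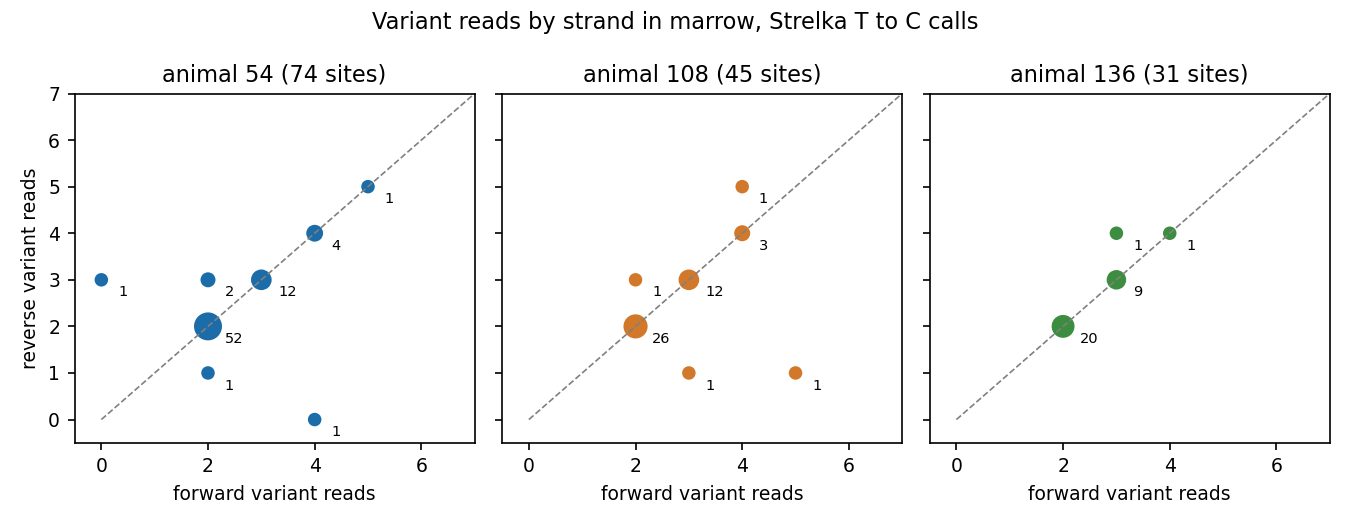
Forward (horizontal axis) and reverse (vertical axis) variant reads in marrow of the 74, 45 and 31 Strelka T to C calls that the marrow lists held, by animal. Each dot is labelled with its number of calls and grows with it, and the dashed line marks equal numbers, on which 69, 41 and 30 of the calls lie.

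Lists of 203 genes of myeloid neoplasms, splicing, chromatin, DNA repair, blood cell transcription factors, signalling and cohesin held 9 protein-altering T to C calls, each in another gene (4.43% of the genes). Of 21900 protein-coding RefSeq genes, 398 had such a call (1.82%). The 2 shares were not matched for coding length or for capture, and their difference was not tested. Chromatin and DNA methylation genes had 4 of 34: the methylcytosine dioxygenase Tet1 (E797G, exon 4 of 13, chr10:62839906, quality 41, animal 136), the maintenance methyltransferase Dnmt1 (D772G, chr9:20918462, quality 23, animal 54), the chromatin remodelling subunit Arid1a (D1026G, chr4:133691194, quality 22, animal 136) and the histone methyltransferase Setd1a (E943G, chr7:127788209, quality 17, animal 54). Myeloid neoplasm genes had 2 of 40: Npm1, a nucleolar chaperone (E254G, chr11:33156007, quality 17), and Zrsr2, a factor of the minor spliceosome (L23S, chrX:163957981, quality 23), both in animal 136. Zrsr2 was also the 1 hit among 32 splicing factors. DNA repair genes had Pold1, the catalytic subunit of a replicative polymerase (L620P, chr7:44538354, quality 40, animal 54), and transcription-coupled and excision repair genes had Xab2 (Q81R, chr8:3618625, quality 40, animal 54). The cohesin subunit Rad21 had E490G (chr15:51967801, quality 24, animal 108), and the lists of blood cell transcription factors and of receptor signalling had 0. The T was on the template strand in 7 of these 9 calls, 6 of them glutamate or aspartate to glycine. Among all Strelka T to C calls in coding sequence, the coding strand share averaged 45.1% over the 3 animals. None of the 9 was in a marrow list, where 38 of all 436 protein-altering T to C calls were found. Srsf2 itself had 0 T to C calls.

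No T to C site was called in more than 1 animal, and no gene had a protein-altering call in all 3. Such calls lay in 184, 101 and 148 genes of animals 54, 108 and 136, or 425 genes in all. The same overlap was not counted over all Strelka calls, so it is given as a description. The 8 genes with protein-altering T to C calls in 2 animals were Chrd, Hmcn1, Katnbl1, Mgll, Syne2, Ttn, Unc79 and Wdr27, named after their values were seen. Of these, Ttn, Syne2 and Hmcn1 encode very long proteins. In Mgll, the monoacylglycerol lipase, animal 108 had L119P and animal 136 had Q94R, and in Unc79 animal 136 had S1921P and animal 54 had Q319R. Most protein-altering calls in 1 animal and 1 gene were 2, in Neb and Ttll6 of animal 54 and in Abca12 of animal 108. The pair in Ttll6 (K576R and E577G) lay 3 bases apart, at chr11:96154685 and chr11:96154688, with qualities of 19 and 31.

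For comparison, T to C sites of the lists of all variants that were found only in marrow or only in ear had coding strand shares of 52.3% ± 0.967 in marrow and 52.0% ± 1.96 in ear (SD, n = 3). The difference was 0.303 points ± 1.56 (exact sign-flip p = 0.75), and its direction changed with several settings. The marrow-only sites include the 150 Strelka calls of the marrow lists.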

How the data were processed

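By the names of the deposited files, the authors made the lists of all variants with SAMtools, the somatic lists with Strelka and VarScan2, and annotated them with SnpEff, whose impact and HGVS columns stand in the file headers. Bowtie2, SAMtools and FastQC are listed in the submitters' processing notes, as are 2 builds, mm9 and GRCm38, with no roles. Coordinates are given as GRCm38, since 550 of 551 coding calls with a RefSeq gene lay inside it. The deposited information field holds the Strelka quality score, the depth and read counts per allele and strand. Caller settings were not given in the sources used here. The Strelka lists give no read counts here, so reads come from the marrow lists, whose lowest depth was 11.

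Each call was reduced to its annotation of highest impact. Gene strand was taken from HGVS.c and equalled the RefSeq strand in 797 of 797 calls compared. Neighbouring bases followed from the amino acids and codon position. The code for this step was run on simulated codons of the same genetic code, which does not test the annotation. Shares have Clopper-Pearson 95% intervals, which cover counting error only. Marrow and ear of 1 number are the same animal, per the labels, and differences over the 3 animals were tested with the exact two-sided paired sign-flip test. Fisher's exact tests within animals were Benjamini-Hochberg adjusted over the 3 animals. No adjustment was made over the 24 main shares, their subsets or the further shares computed. Calls matched on chromosome, position and alleles. Left out were 1 multi-allelic row, the indel lists and 96 per-tissue columns of the VarScan2 tables, whose names match no sample.

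Named genes are those in the lists, the 5 protein-altering calls of highest quality and of most marrow variant reads per animal, repeated sites and genes, splice, start and stop changes (10 by quality) and calls shared with VarScan2. Members, lists and tests were chosen with earlier results of these data known. Neighbouring bases, amino acid exchanges, the contrast of introns with coding sequence and the read directions were added after seeing the data. Python 3.11.15, pandas 2.3.3, SciPy 1.17.1 and matplotlib 3.10.9 were used.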

Additional observations from a re-analysis of the deposited data

How the results depend on the processing

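Of 78 alternatives of paired differences over animals, 71 kept the direction and 7 reversed; no paired test over 3 animals could pass 0.05, so none could gain or lose a call. Of 36 alternatives of odds ratios within animals, 34 kept the direction and 2 reversed. Those on neighbouring bases, read directions and introns were chosen after seeing the data. Limiting to coding sequence turned the Strelka minus VarScan2 coding strand difference to 3.35 points, turned the odds ratio of animal 108 to 0.809 and brought that of animal 54 (0.696) past the threshold. With the first annotation listed, the odds ratio of animal 108 was 0.974. Against ear-only sites, the coding strand odds ratio of animal 136 passed the threshold at 0.746, its protein-altering odds ratio lost it at 1.11, and the share with C before the T turned to -7.61 points. The mean quality in place of the median gave a difference of 0.395.

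Leaving out 1 animal gave a range of -0.504 to 1.06 points for marrow-only minus ear-only sites, and -1.30 to 1.85 points for the share in the marrow list. The first of these also turned to -0.0293 with the first annotation, -0.634 in coding sequence and -1.77 with at least 20 reads. Without the pairing by animal (no replicate block) the same 0.303 points had an exact permutation p of 0.8. The read direction contrast could not be computed at a quality of at least 30, since animal 136 had 0 such calls, and the planned test of A before the T from genome sequence was not run, since no genome was used. The causes of these changes were not tested.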
